A study of Solanum lycopersicum with 31 samples.

Results

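Sugar transporters and sucrose enzymes of the tomato leaf were taken from the gene descriptions in the files: 89 of 30397 genes carry one of the chosen product names. They are 30 SWEET genes (annotated as bidirectional sugar transporters), 10 sugar transport proteins (STP), 3 sucrose transporters (SUT) and 10 ERD6-like sugar transporters. The other groups are 3 genes with monosaccharide in their name, 6 polyol transporters, 13 genes named after invertase, 4 invertase inhibitors, 6 sucrose synthases and 4 sucrose-phosphate synthases or phosphatases. A pair of the genes fit their group loosely. LOC101244503, counted with the invertases, is a plant invertase/pectin methylesterase inhibitor superfamily protein, and LOC101254570, counted with the monosaccharide group, is polyol/monosaccharide transporter 3.

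In a source leaf, sucrose-phosphate synthase makes the direct precursor of sucrose in the cytosol of mesophyll cells. SWEET uniporters, which let sugar pass in either direction along its gradient, release sucrose from leaf cells on its way to the phloem. Proton-coupled sucrose transporters such as SUT1 load it into the phloem. Invertases and sucrose synthase split sucrose again, invertase inhibitors hold invertases in check, and tonoplast and hexose transporters move sugars into the vacuole or back into cells.

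The plants were wild-type Moneymaker tomatoes kept in a growth chamber lit by ceramic metal halide lamps and incandescent bulbs. Leaf RNA came from individual plants that grew below a semitransparent organic solar cell or below a spectrally neutral control, and was sampled under those growth conditions. PI stands for a solar cell with the blend PTB7-Th:IEICO-4F, FP for one with FTAZ:PCBM and FI for one with FTAZ:IT-M, and C is the control. Each filter was used in a photon flux density controlled (PC) and in a height controlled (HC) experiment. This gives 8 groups: C_PC, FI_PC, FP_PC, PI_PC, C_HC, FI_HC and FP_HC with 4 libraries each, and PI_HC with 3. A plant is 1 library, so p-values measure the spread between plants of a group, and the experiments cannot be told apart from the light intensity they set.

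Library totals were between 13671052 and 15210356 counts, and 3 counts in a library correspond to 0.197 to 0.219 CPM, the count relative to a scaled library total. The deposited identifiers of 3 libraries carry a block code that the other libraries of another group share, and these are the libraries that are labelled C_PC 4, PI_PC 4 and FP_PC 4. The code on the library labelled C_PC 4 is that of PI_PC, the code on PI_PC 4 is that of FP_PC, and the code on FP_PC 4 is that of PI_HC. On principal component 1, computed from the 2000 genes with the highest variance and holding 28.5% of it, the library labelled C_PC 4, PI_PC 2 and PI_PC 3 lay at -61.6, -60.2 and -58.6, against -15.8 to 30.4 for the others. Leaf identity was checked with 21 mesophyll genes (Rubisco small subunit and chlorophyll a-b binding proteins), of which 20 had counts in all libraries. Their summed level was 18149 to 74280 CPM. Single genes of this list varied unequally, Cab-1D from 1.55 to 358 CPM and LOC101246628 from 47.15 to 76.84 CPM. The sum is therefore not a measure of mesophyll cell numbers, and whether the light conditions changed these genes within cells was not tested. Of 17 phloem genes, 12 had counts in all libraries and 2 had none, with sums of 379.5 to 705.3 CPM. The 7 root genes summed to at most 3.66 CPM and the 2 fruit ripening genes to at most 6.35 CPM. The 13 pollen and anther genes summed to 614.7 to 832.2 CPM, with 8 of them counted in all libraries. Fewer cells of a type and less RNA per cell cannot be told apart in whole leaves.

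Expression of the sugar transport set in the leaf is given first. The members together took 0.366% to 0.632% of the counts of a library, and 15 of them had 0 counts in all 31 libraries. Of the 89 members, 47 passed the filter on low counts and were tested among 16198 genes. The 42 others had at most 169 counts over all libraries and at most 35 in any library. For genes with several annotated transcripts the counts say little, because a fragment that falls equally on several exon records was counted for none. The 15 members of this kind hold 2177 of 2385130 member counts (0.091%), among them SUT2 and the sucrose-phosphate synthase A2 gene LOC101055611 with 0, and the sucrose synthases SUS4, LOC543961 and sus3 with 2, 5 and 31 counts. Nothing can be said here on the level of these genes.

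Among the 74 members with 1 annotated transcript, levels can be compared per length. The SWEET gene LOC101261104 (bidirectional sugar transporter N3, chromosome 3, 61623729 to 61626446, SL3.0) was highest, at a mean of 1077 CPM per kb of exon. LeSUT1 (sucrose transport protein, chromosome 11, 7764167 to 7768283), the loader of sucrose into the phloem, followed with 587 CPM per kb. The next were the polyol transporter PMT5 with 200.1, the SWEET gene LOC112940022 with 186, the sucrose-phosphate synthase sps with 172 and the invertase inhibitor LOC543729 (CIF1 in RefSeq) with 121 CPM per kb. The highest of the invertases was the alkaline/neutral invertase LOC100134879, with 64.7 CPM per kb. The monosaccharide-sensing protein TMT2, known from its relatives in Arabidopsis as a vacuolar sugar importer, had 39.5 CPM per kb. SFP6 led the ERD6-like group with 27.8 and STP12 the STP group with 9.93 CPM per kb. The sucrose synthase LOC101255377 had 3.81 CPM per kb, the lowest level among the leading genes of the 10 groups. Within the SWEET family the levels thus ran from 0 to 1077 CPM per kb, and 16 of 30 members were tested. In the STP family 2 of 10 members were tested.

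**Figure D1:**
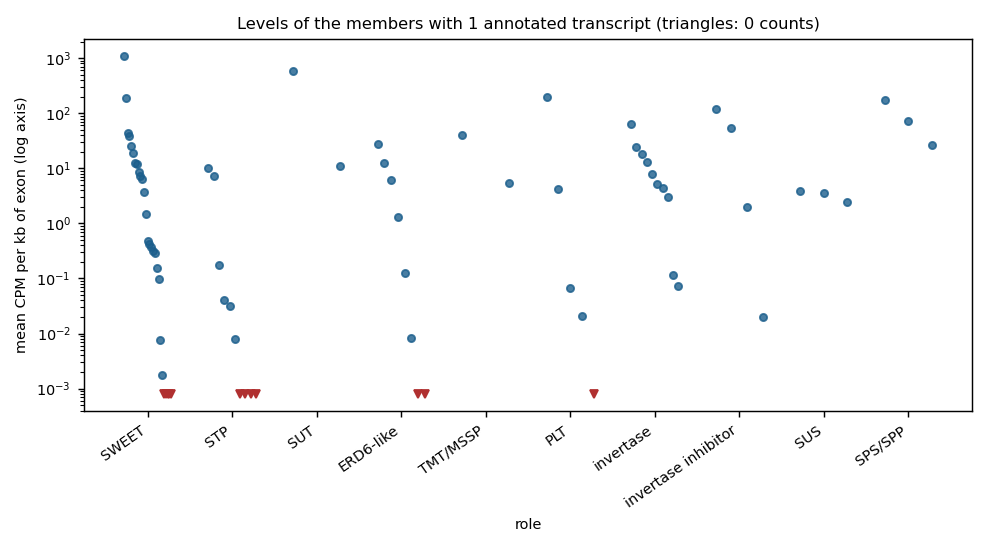
Mean level of each member with 1 annotated transcript, in CPM per kb of exon on a log axis, by group of members; red triangles mark members with 0 counts. LOC101261104 tops the SWEET column at 1077 and LeSUT1 the SUT column at 587 CPM per kb.

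The next question was which members differed anywhere among the 8 light conditions. In one test per gene over all groups (edgeR quasi-likelihood, Benjamini-Hochberg adjusted over all genes, threshold 0.05), 8 of the 47 members passed (17%), against 10.5% of all 16198 genes. Of the 8, 6 are SWEET genes: LOC109119841 (adjusted p 0.000114), LOC101263195 (0.00175), LOC101261104 (0.0019), LOC101265012 (0.00192), LOC101265550 (0.0368) and LOC101255412 (0.043). The others are the acid invertase Wiv-1 (0.0269) and the ERD6-like transporter SFP4 (0.034). Without the libraries labelled C_PC 4, PI_PC 4 and FP_PC 4, 15 members passed, against 25.4% of 16100 genes, and LOC101255412 was no longer among them (adjusted p 0.0737). The adjusted p of LOC109119841, LOC101263195, LOC101261104 and LOC101265012 stayed under 0.01 in each of the 39 alternatives run. That of the other 4 genes crossed the threshold in some, with ranges of 0.000154 to 0.207 for Wiv-1, 0.00434 to 0.0675 for SFP4, 0.003 to 0.088 for LOC101265550 and 0.00318 to 0.164 for LOC101255412. With all libraries, no member outside the SWEET, invertase and ERD6-like groups passed this test. In 3 of these other groups the gene with the smallest p had the following values. The sucrose synthase LOC101266782 had an adjusted p of 0.413, the polyol transporter LOC101264782 one of 0.456 and the sucrose-phosphate synthase LOC101256154 one of 0.273.

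**Figure D2:**
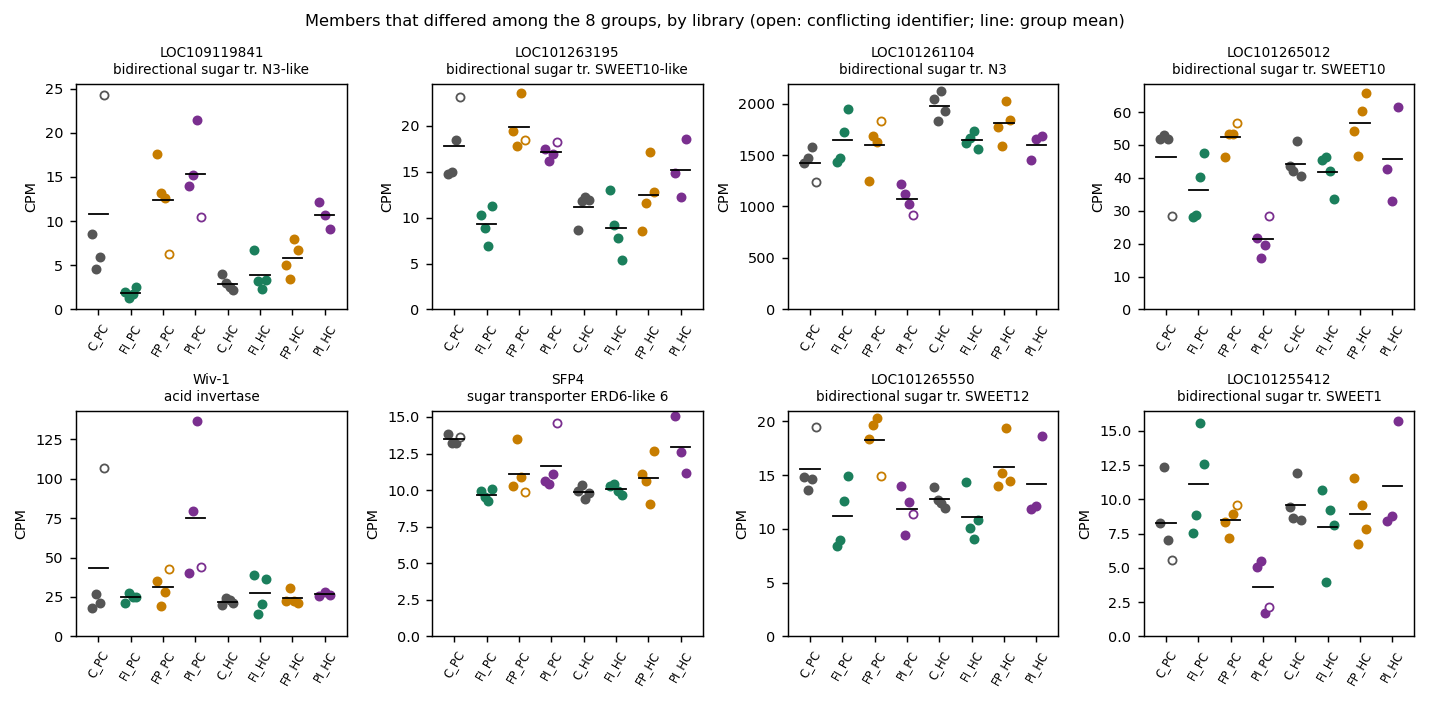
CPM of the 8 members that differed among the groups, 1 point per library; lines are group means, and open points are the 3 libraries with conflicting identifiers. LOC101261104 sits between 912.7 and 1214 CPM in PI_PC and between 1826 and 2125 CPM in C_HC, while LOC109119841 stays at or under 2.49 CPM in FI_PC.

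LOC101261104, the SWEET gene with the highest level, is described first. It had 1423, 1470, 1575 and 1236 CPM in C_PC, 1435, 1467, 1726 and 1951 in FI_PC, 1246, 1689, 1631 and 1834 in FP_PC, and 1214, 1124, 1025 and 912.7 in PI_PC. At controlled height it had 2043, 1826, 2125 and 1924 CPM in C_HC, 1618, 1665, 1734 and 1558 in FI_HC, 1773, 1586, 2028 and 1837 in FP_HC, and 1450, 1659 and 1686 in PI_HC. Every PI_PC library lay below every library of the other groups, and every C_HC library lay above every library of C_PC, FI_HC and PI_HC. The share of all genes that separate in this way is not given here. C_HC against C_PC, FI_HC against C_HC and PI_HC against C_HC did not pass for this gene. In order of group means PI_PC (1069 ± 129 CPM, SD, n = 4) came last and C_HC (1979 ± 132 CPM, SD, n = 4) first. FI_HC, FI_PC, FP_PC and PI_HC had means of 1644, 1645, 1600 and 1598 CPM, closer together than the spread within each. PI_HC against PI_PC gave a log2 fold change of 0.58 (standard error 0.137, edgeR adjusted p 0.0188). The adjusted p ranged from 0.000665 to 0.284 over its alternatives and was 0.0102 without the 3 libraries with conflicting identifiers. It passed the threshold no more without PI_PC 3 (0.0709), PI_HC 3 (0.056) or PI_HC 4 (0.138), or when only the groups compared were fitted (0.284). In that last fit 0% of all genes passed. PI_PC against C_PC missed the threshold with all libraries (log2 fold change -0.42, standard error 0.128, adjusted p 0.123).

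LOC109119841, annotated as N3-like, lies on the minus strand of chromosome 3 (61334416 to 61336319, 6 exons). It had a much lower level and the widest range among groups. The libraries of C_PC had 8.53, 4.61, 5.92 and 24.3 CPM, those of FI_PC 1.92, 1.28, 1.79 and 2.49, those of FP_PC 17.6, 13.2, 12.6 and 6.26, and those of PI_PC 14.0, 15.2, 21.5 and 10.5. In the height experiment the values were 4.02, 3.01, 2.55 and 2.15 CPM in C_HC, 6.69, 3.17, 2.27 and 3.30 in FI_HC, 5.09, 3.47, 7.98 and 6.75 in FP_HC, and 12.2, 10.7 and 9.12 in PI_HC. The 24.3 CPM of the library labelled C_PC 4 exceeds every other library of all groups, and FI_PC lay below C_PC, FP_PC and PI_PC with no overlap. The order of means was PI_PC, FP_PC, C_PC, PI_HC, FP_HC, FI_HC, C_HC and FI_PC, from 15.3 ± 4.60 down to 1.87 ± 0.498 CPM (SD, n = 4). Neighbours from PI_PC to PI_HC (10.7 ± 1.53 CPM, SD, n = 3) overlapped, and so did neighbours from FP_HC to FI_PC.

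At controlled height LOC109119841 was the 1 of 47 members that passed for PI_HC against C_HC (2.13%, against 2.14% of all genes, 1% being higher and 1.14% lower). It rose by 1.86 on the log2 scale (standard error 0.442, edgeR adjusted p 0.0235). Leaving out the 3 conflicting libraries gave 1.86 again, with an adjusted p of 0.00109 (4.37% of all genes passed then). None of the 3 is labelled PI_HC or C_HC, but the library labelled FP_PC 4 carries the block code of PI_HC. That library had 6.26 CPM of LOC109119841, below every PI_HC library and above every C_HC library. A fit that counts it as PI_HC was not run. The adjusted p ranged from 0.00109 to 0.0821 over its alternatives. It exceeded 0.05 when PI_HC 1, 3 or 4 or C_HC 2, 3 or 4 was left out (0.0696, 0.0615, 0.0821, 0.0588, 0.0652 and 0.0548). In PI_PC against C_PC the same gene missed the threshold with all libraries (log2 fold change 0.49, adjusted p 0.585), but without the 3 libraries it rose by 1.42 (standard error 0.319, adjusted p 0.002). In FI_PC against C_PC it fell by 2.54 (standard error 0.439, adjusted p 0.0023) and by 1.75 without the 3 libraries (adjusted p 0.00217). That adjusted p ranged from 9.97e-07 to 0.129, the highest value coming from a fit of FI_PC and C_PC by themselves. In FI_HC against C_HC it did not pass (log2 fold change 0.39). The difference between the FI effects of the experiments passed its own test, at 2.93 on the log2 scale (standard error 0.611, edgeR adjusted p 0.0145) and 2.15 without the 3 libraries (adjusted p 0.0076). It was the only member of 47 to pass that test (2.13%, against 1.2% of all genes, 0.5% higher and 0.698% lower, and 3.51% without the 3 libraries). Fitting only the groups compared gave an adjusted p of 0.0525, the highest of its 25 alternatives. Summed mesophyll markers were 44577 to 48312 CPM in PI_HC, 31495 to 50585 in FI_HC and 33298 to 39580 in C_HC, and their part in these differences was not tested.

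Its counts came unevenly from its exons. The last exon (534 bases) held 64.9% and the third exon (211 bases) 22.7% of 3681 counts. For LOC109119841, FI_PC had 76 counts on the last exon and C_PC 410, against 26 and 165 on the third. Of the C_PC counts, 235 and 110 came from the library labelled C_PC 4. The 3 other C_PC libraries had 175 counts on the last and 55 on the third exon, against 76 and 26 in the 4 libraries of FI_PC. PI_HC with 3 libraries had 306 and 119 counts on these exons, against 113 and 33 in the 4 libraries of C_HC. The 4 remaining exons together held few counts, with 36 to 190 each.

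LOC109119841 lies in a row of 7 SWEET genes on the minus strand of chromosome 3 that spans 60.8 kb (61327290 to 61388073) with no other annotated gene in between. Their levels differ widely along the row. LOC101265318 had 0 counts and LOC101262399, at the other end, 1 count in all libraries. LOC112940022, in the middle, had 186 CPM per kb, LOC101265012 38.2, LOC101263500 25.2, LOC101263195 12.4 and LOC109119841 6.52 CPM per kb. LOC101261104 is not part of the row: it lies 235.7 kb further on the plus strand, behind 21 other genes. Neighbouring SWEET genes are similar in sequence, and how fragments that fit several of them were counted is not stated beyond the counting command, so small shifts between neighbours are uncertain.

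**Figure D3:**
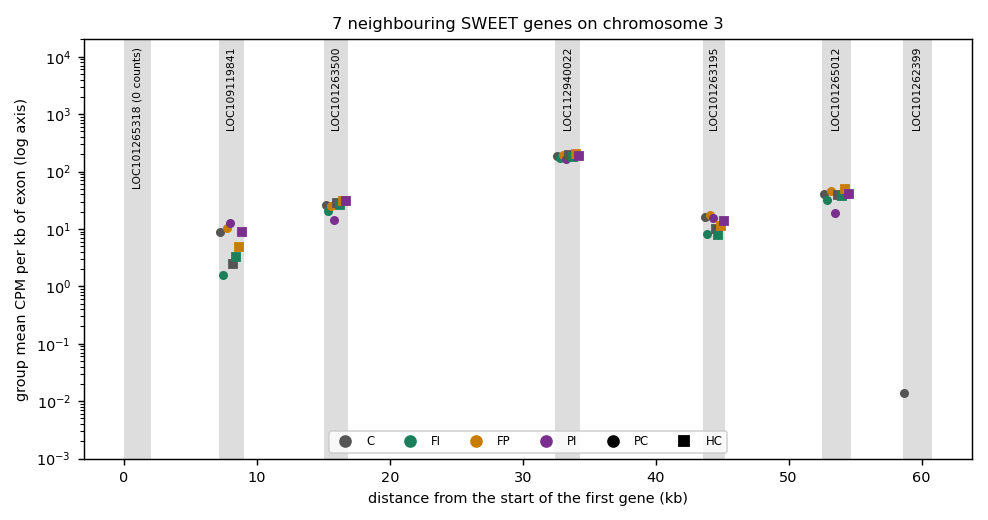
Group mean levels, in CPM per kb of exon on a log axis, of the 7 neighbouring SWEET genes by distance from the first start; grey bands are the genes, colours the filters, circles PC and squares HC. LOC109119841 spreads from 1.55 (FI_PC) to 12.7 (PI_PC), while LOC112940022 stays between 168 and 203 CPM per kb.

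Members of the row did not all move in the same groups. LOC101263195 fell in FI_PC against C_PC, as LOC109119841 did, while LOC101265012 fell in PI_PC against C_PC. LOC101263195 (SWEET10-like) had 14.7, 15.0, 18.5 and 23.2 CPM in C_PC and 10.3, 8.83, 6.97 and 11.2 in FI_PC, which do not overlap. It fell by 0.94 in FI_PC (standard error 0.217, edgeR adjusted p 0.018), and by 0.78 without the 3 libraries with conflicting identifiers (adjusted p 0.0405). Its adjusted p was 0.0645 without FI_PC 2, 0.0981 without FI_PC 3 and 0.134 when FI_PC and C_PC were fitted by themselves, within a range of 0.00187 to 0.134. The group means of LOC101263195 were otherwise 19.8 CPM in FP_PC, 17.2 in PI_PC, 11.2 in C_HC, 8.85 in FI_HC, 12.5 in FP_HC and 15.2 in PI_HC. LOC112940022, the gene of the row with the highest level, had adjusted p of 0.518 in FI_PC and 0.44 in PI_PC against C_PC, with log2 fold changes of -0.15 and -0.17.

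LOC101265012 (SWEET10) had 51.7, 53.1, 51.8 and 28.5 CPM in C_PC and 21.6, 15.6, 19.5 and 28.3 in PI_PC. The library labelled C_PC 4, at 28.5 CPM, is just above the highest PI_PC value, which belongs to the library labelled PI_PC 4, and C_PC 1 to 3 lie far above both. LOC101265012 fell by 1.12 in PI_PC (standard error 0.208, edgeR adjusted p 0.0235) and was the 1 of 47 members that passed in PI_PC against C_PC (2.13%, against 0.309% of all genes, with 0.179% lower). Without the 3 libraries it fell by 1.46 (standard error 0.2, adjusted p 4.19e-05). With all 3 kept, the call was lost without C_PC 1, C_PC 2, C_PC 3, PI_PC 2 or PI_PC 3 (adjusted p 0.116, 0.11, 0.06, 0.0582 and 0.136). The call was also lost with only C_PC and PI_PC fitted (0.846), where 0% of all genes passed. The range over alternatives was 4.19e-05 to 0.846. In PI_HC it had 42.6, 32.9 and 61.5 CPM, all above PI_PC, and rose by 1.10 against PI_PC (standard error 0.22, edgeR adjusted p 0.00696). That adjusted p was 0.000319 without the 3 libraries and 0.126 without PI_HC 4, where the log2 fold change was 0.83, and it was 0.168 with only PI_HC and PI_PC fitted. In C_HC it had 40.6 to 51.2 CPM, and PI_HC against C_HC gave 0.04. The difference between the PI effects of the experiments was 1.17 (standard error 0.3) with an adjusted p of 0.057, and 1.51 with 0.00076 without the 3 libraries, over a range of 0.00076 to 0.278.

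LOC101255412 (SWEET1, chromosome 6, 38697618 to 38701841) also had its lowest mean in PI_PC, with 5.03, 5.50, 1.69 and 2.12 CPM, against 8.30, 12.3, 7.02 and 5.54 in C_PC and 8.45, 8.75 and 15.7 in PI_HC. PI_PC lay below both groups, by a narrow margin in C_PC, whose lowest library is the one labelled C_PC 4. It rose by 1.61 in PI_HC against PI_PC (standard error 0.356, edgeR adjusted p 0.0129) and by 1.44 without the 3 libraries (adjusted p 0.0107). The adjusted p was 0.0641 without PI_PC 3, 0.163 without PI_HC 4 and 0.23 with the 2 groups fitted by themselves, in a range of 0.000891 to 0.23. Altogether 3 of 47 members passed in PI_HC against PI_PC, all higher (6.38%, against 3.44% of all genes, with 1.93% higher): LOC101255412, LOC101261104 and LOC101265012. Summed mesophyll markers were 44577 to 48312 CPM in PI_HC and 18149 to 74280 CPM in PI_PC, and their part was not tested. The other SWEET gene with a difference among groups, LOC101265550 (SWEET12, chromosome 6, 44927380 to 44929333), passed in none of the 13 comparisons of groups. Its means ran from 11.1 ± 2.31 in FI_HC to 18.3 ± 2.43 CPM (SD, n = 4) in FP_PC.

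The other 10 tested SWEET genes passed neither the test among all groups nor any comparison when all libraries were kept. They are LOC101244429, LOC101247627, LOC101255592, LOC101258901, LOC101258946, LOC101259239, LOC101259534, LOC101263500, LOC101263567 and LOC112940022. LOC101258946, LOC101259239 and LOC101259534, neighbours on chromosome 4, had means of 0.366 to 0.486 CPM per kb and 206 to 246 counts in all, so only large changes could be seen in them. The largest log2 fold changes among the 10 belong to these genes, such as -1.82 for LOC101259239 in FI_PC against C_PC, where the libraries had 0 to 0.332 and 0.227 to 2.03 CPM. The 2.03 CPM belong to the library labelled C_PC 4, and without the 3 libraries the log2 fold change was -0.65 (adjusted p 0.639).

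**Figure D4:**
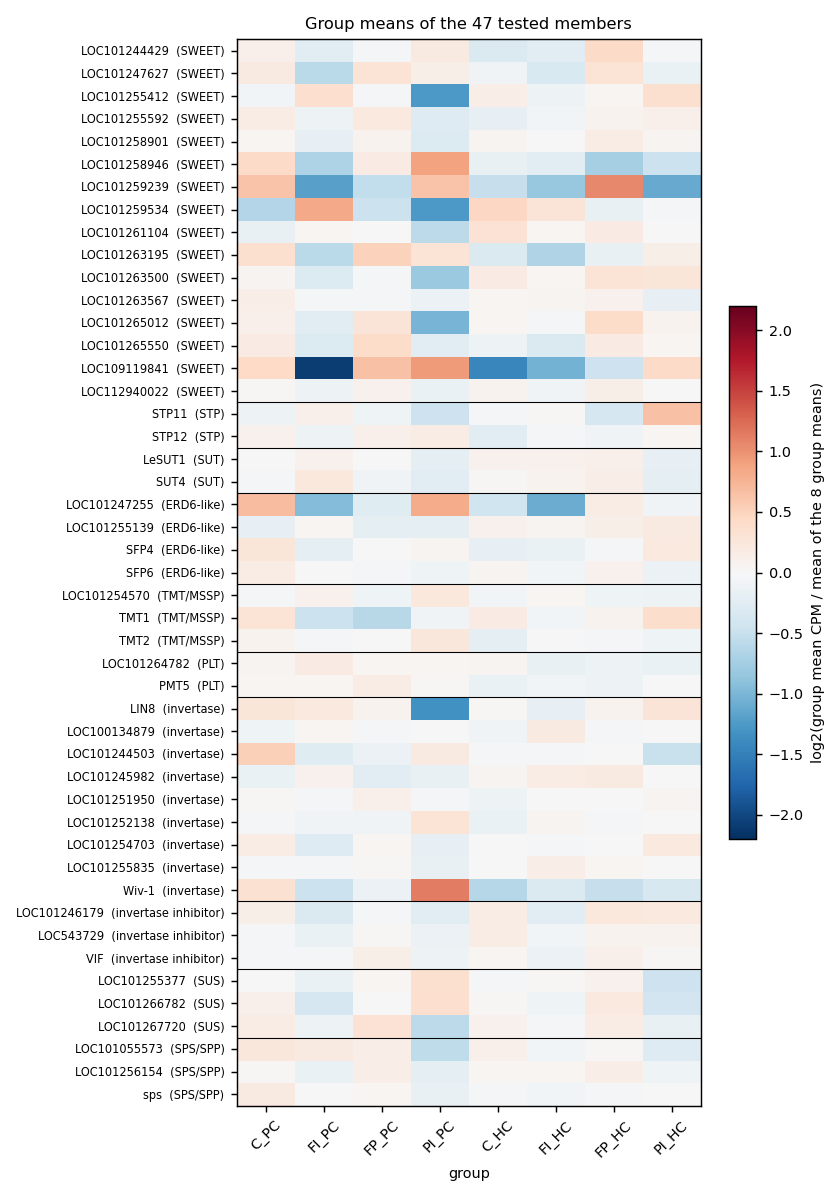
Group mean of each of the 47 tested members relative to the mean of the 8 groups, in log2 units (red higher, blue lower), with lines between groups of members. The 3 darkest cells are LOC109119841 in FI_PC (-2.09) and C_HC (-1.44) and LIN8 in PI_PC (-1.34); the row of LeSUT1 stays between -0.22 and 0.11.

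For FI at controlled photon flux the members were read as a set. In FI_PC against C_PC, 3 of 47 members passed, all lower (6.38%, against 2.31% of all genes, with 0.883% lower): LOC109119841, LOC101263195 and SFP4. The members' median log2 fold change was -0.17, against -0.03 over all genes, and 12 of 47 were positive. The lean was not particular to FI. PI_PC against C_PC, which shares the C_PC libraries, also had a median of -0.17 (0.009 over all genes) and 12 positive members. The share of all genes that were positive is not given here. SFP4, an ERD6-like transporter whose relatives in Arabidopsis export sugar from the vacuole, had 13.8, 13.2, 13.2 and 13.7 CPM in C_PC and 9.93, 9.51, 9.22 and 10.1 in FI_PC. The groups are tight and do not overlap. It fell by 0.48 (standard error 0.119, edgeR adjusted p 0.0298), and by 0.46 without the 3 libraries (adjusted p 0.0171). The adjusted p rose above 0.05 without FI_PC 2, 3 or 4 (0.0941, 0.111 and 0.0539), without C_PC 1, 2 or 3 (0.0744, 0.0553 and 0.0546), without the filter on low counts (0.0528) and with only FI_PC and C_PC fitted (0.149). Its range over the alternatives was 0.00775 to 0.149, and its log2 fold change stayed between -0.49 and -0.44. Without the 3 libraries 4 members fell (8.51%, against 6.36% of genes, with 2.81% lower), the fourth being LOC101254703 (alkaline/neutral invertase D), by 0.53 (adjusted p 0.0301). LeSUT1, PMT5 and sps had log2 fold changes of 0.10, -0.01 and -0.21 in FI_PC, with standard errors of 0.111 to 0.136, and none passed. Summed mesophyll markers were 25037 to 33448 CPM in FI_PC and 51442 to 63145 CPM in C_PC 1 to 3, with 18597 CPM in the library labelled C_PC 4. Their part in the fall of the 3 members was not tested.

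FP_PC against C_PC gave 0 members (0% of all genes also), and 0 without the 3 libraries. Its unadjusted p was under 0.05 for 2 members, against 4.07% of all genes. FI_HC against C_HC gave 0 members (0% of all genes), and 2 at an unadjusted p under 0.05, where 5.18% of all genes lay. In FP_HC against C_HC 0 members passed (0.037% of all genes), and the unadjusted p of 3 was under 0.05 (6.77% of all genes). In FP_HC 37 of 47 members were positive, with a median log2 fold change of 0.07, against 0.00 over all genes. How many of all genes were positive there is not given. FI_HC against FI_PC and FP_HC against FP_PC gave 0 members each (0.111% and 0.0494% of all genes). Unadjusted p-values under 0.05 were found for 2 and 5 members, against 6.27% and 8.13% of all genes. Without the 3 libraries LOC109119841 fell by 1.31 in FP_HC against FP_PC (adjusted p 0.0298, range 0.0298 to 0.67), where 0.845% of genes passed. The FP effects of the experiments differed in 0 members (0% of all genes), and 2 had an unadjusted p under 0.05 (3.72% of all genes). DESeq2 gave 0 members in each of these 6 comparisons as well.

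C_HC against C_PC gave 1 member, LOC109119841, lower in C_HC (2.13%, against 0.37% of all genes, with 0.179% lower), and 0 without the 3 libraries, where 1.76% of genes passed. The fall was 1.89 with all libraries and 1.10 without the 3 (edgeR adjusted p 0.0397 and 0.067). Leaving out the library labelled C_PC 4 alone gave a fall of 1.13 (adjusted p 0.121). The adjusted p was also at or above 0.05 without C_PC 1 (0.05) and without C_HC 1, 2, 3 or 4 (0.0611, 0.0957, 0.128 and 0.0828), in a range of 0.00118 to 0.382. Summed mesophyll markers were 33298 to 39580 CPM in C_HC, against 51442 to 63145 CPM in C_PC 1 to 3 and 18597 CPM in the library labelled C_PC 4, and their part was not tested.

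PI_PC against C_PC depended most on the conflicting libraries. With all libraries LOC101265012 alone passed. Without the libraries labelled C_PC 4, PI_PC 4 and FP_PC 4, which leaves 3 libraries in each of these groups, 18 of 47 members passed (38.3%), against 28.8% of 16100 genes. Of the 18, 6 were higher (13.7% of genes) and 12 lower (15% of genes) in PI_PC. The members' median log2 fold change was -0.10, against 0.04 over all genes. Leaving out the library labelled C_PC 4 alone gave 12 members, with 14.8% of genes passing. Leaving out instead the 3 libraries that stand apart on the first principal component gave 1, with 1.93% of genes. Apart from LOC101265012, each of the 18 passed in 1 to 4 of its 15 to 17 alternatives. The members named next were chosen after these values were seen.

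Of the invertases, Wiv-1 and LIN8, neighbours on chromosome 10 (63234633 to 63240146 and 63247118 to 63251646), went opposite ways. Wiv-1 (acid invertase) had 17.7, 27.0 and 21.1 CPM in C_PC 1 to 3 and 107.1 CPM in the library labelled C_PC 4, and 40.1, 79.8 and 136.7 CPM in PI_PC 1 to 3 and 43.9 CPM in the library labelled PI_PC 4. Every PI_PC library lay above C_PC 1 to 3, and the library labelled C_PC 4 lay among the PI_PC values. Without the 3 libraries Wiv-1 rose by 1.97 (standard error 0.33, edgeR adjusted p 0.000201), and with them the log2 fold change was 0.79 (adjusted p 0.391). In the HC groups its means were 22.1 to 27.5 CPM. LIN8 (invertase 8) had 31, 47 and 48 counts in C_PC 1 to 3 and 10 in the library labelled C_PC 4, against 9, 4 and 5 in PI_PC 1 to 3 and 29 in the library labelled PI_PC 4. It fell by 3.03 without the 3 libraries (standard error 0.422, edgeR adjusted p 4.64e-05), and with them by a value that missed the threshold (-1.63, adjusted p 0.127). LIN8 has 2 annotated transcripts, so these counts are what was left of its fragments. The alkaline/neutral invertase LOC101252138 rose by 0.36 and LOC101254703 fell by 0.70 without the 3 libraries, and the inhibitor superfamily gene LOC101244503 fell by 2.01. LOC101244503 had -0.34 with all libraries and 0.49 without C_PC 3, so that its direction turned. The putative invertase inhibitor LOC101246179 fell by 1.16 (adjusted p 0.0226).

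Of the sucrose enzymes, the sucrose-phosphate synthase B gene LOC101055573 (chromosome 9, 71744685 to 71752955) had 389.1, 379.6 and 348.4 CPM in C_PC 1 to 3 and 106.1 in the library labelled C_PC 4. PI_PC 1 to 3 had 239.7, 78.5 and 85.2 CPM and the library labelled PI_PC 4 had 296.2. The low values are thus those of PI_PC 2, PI_PC 3 and the library labelled C_PC 4. It fell by 1.46 without the 3 libraries (standard error 0.277, edgeR adjusted p 0.00054), and with them the log2 fold change was -0.81 (adjusted p 0.246). The gene sps, the sucrose-phosphate synthase with the higher level, had -0.26 without the 3 libraries (adjusted p 0.188). The sucrose synthase LOC101267720 fell by 1.44 (adjusted p 0.0111).

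Of the transporters without the 3 libraries, LOC109119841 was the SWEET gene that rose, and LOC101265012, LOC101255412, LOC101263500, LOC101255592 and LOC101261104 fell by 1.46, 1.18, 1.10, 0.77 and 0.40. The ERD6-like gene LOC101247255 rose by 2.25 (edgeR adjusted p 0.00198), from 1.27 ± 0.507 to 6.04 ± 0.789 CPM (SD, n = 3), while the libraries labelled C_PC 4 and PI_PC 4 had 13.2 and 0.586 CPM. TMT2 rose by 0.42 (adjusted p 0.0076), from 98.8 ± 1.36 to 131.6 ± 17.0 CPM (SD, n = 3), and the libraries labelled C_PC 4 and PI_PC 4 had 143.9 and 100.8 CPM. With all libraries LOC101247255 had 0.13, and its direction turned when C_PC 1, 2 or 3 or PI_PC 2 or 3 was left out (-0.22 to -0.01). LOC101254570 rose by 0.67 and the hexose transporter STP11 fell by 1.10, which was -0.35 with all libraries and 0.043 without C_PC 2. LeSUT1 had a log2 fold change of -0.11 and did not pass (adjusted p 0.539). Summed mesophyll markers were 42210, 18852 and 18149 CPM in PI_PC 1 to 3 and 74280 CPM in the library labelled PI_PC 4, against 51442 to 63145 CPM in C_PC 1 to 3 and 18597 CPM in the library labelled C_PC 4. Summed phloem markers were 678.3, 414.9 and 490.9 CPM in PI_PC 1 to 3 and 453.9 to 585.2 CPM in C_PC 1 to 3. Their part in these differences was not tested.

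**Figure D5:**
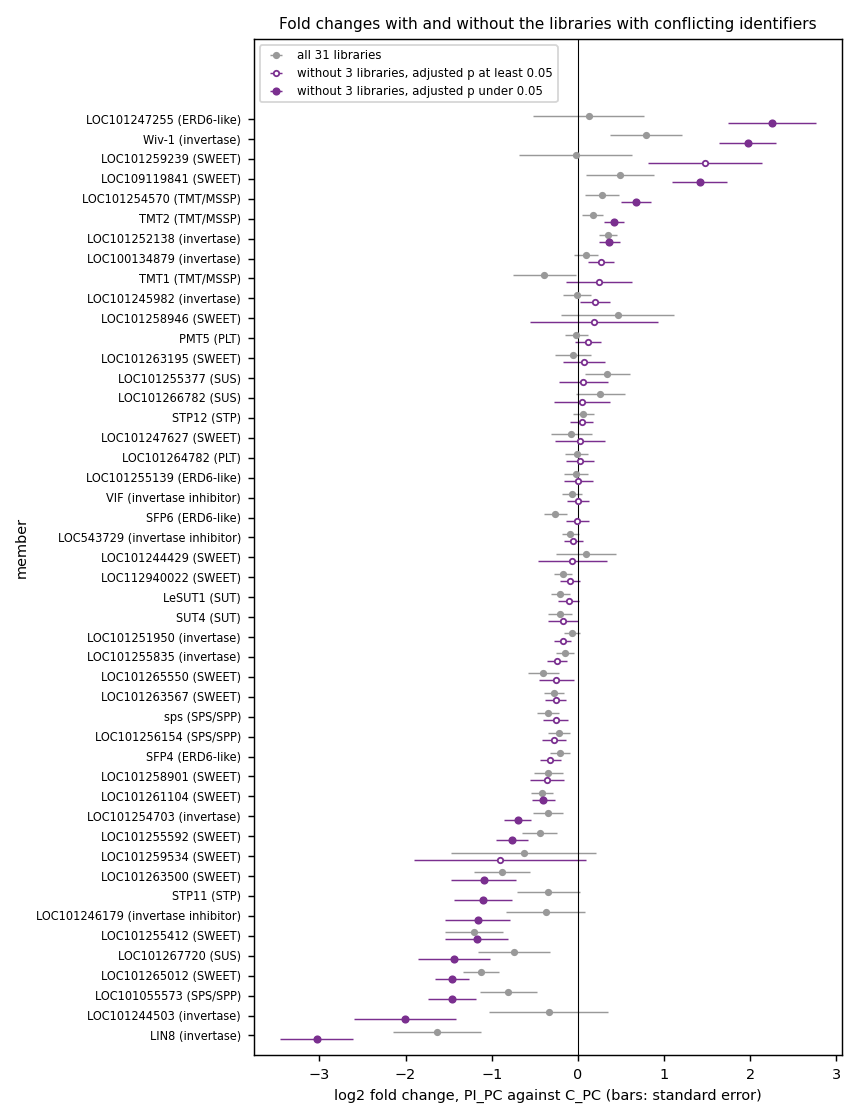
Log2 fold change of each tested member in PI_PC against C_PC with its standard error, with all 31 libraries (grey) and without the 3 libraries with conflicting identifiers (purple; filled where the adjusted p is under 0.05). LIN8 moves from -1.63 to -3.03 and LOC101247255 from 0.13 to 2.25, while LeSUT1 stays near 0.

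For PI at controlled height, LeSUT1 had 1065, 942.6 and 865.4 CPM in PI_HC and 1153, 1227, 1113 and 1150 CPM in C_HC, which do not overlap. Its log2 fold change of -0.28 (standard error 0.121) had an edgeR adjusted p of 0.252 and did not pass. The PI effects of the experiments differed in 0 members (0.833% of all genes) with all libraries, with 9 members at an unadjusted p under 0.05 (14.7% of all genes), and DESeq2 gave 2 (2.77% of all genes). Without the 3 libraries 9 members differed (19.1%, against 17.4% of genes, 8.93% higher and 8.52% lower). The interaction was positive for LIN8 (3.28), STP11 (1.79), LOC101265012 (1.51), LOC101055573 (1.08), LOC101255592 (1.07), LOC101254703 (0.93) and SFP4 (0.72), and negative for Wiv-1 (-1.69) and LOC101254570 (-0.71). PI_HC against PI_PC had 11 members without the 3 libraries (23.4%, against 15.5% of genes), 8 higher and 3 lower (8.12% and 7.39% of genes). The 3 lower ones were LOC101259239, Wiv-1 (by 1.67) and TMT2 (by 0.43), and among the 8 higher ones were LIN8 (2.73), STP11 (1.64) and LOC101263500 (1.18).

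Other genes with names from sugar metabolism were taken from a list of 65 genes by words in the product name, of which 38 were tested. They include hexokinases, fructokinases, plastid sugar phosphate translocators and raffinose synthesis enzymes. The words also took in fructokinase-like genes, a ketohexokinase and ATP-dependent 6-phosphofructokinases, and no enzyme activity was checked. In FI_PC against C_PC, 1 was higher and 5 were lower (1.43% and 0.883% of all genes), with a median log2 fold change of -0.13 over the 38. The phosphomannomutase/phosphoglucomutase LOC101267404 fell by 1.12 (adjusted p 0.00939) and LOC101257623, which makes raffinose from sucrose and galactinol, by 0.92 (adjusted p 0.0199). LOC101248935 (UDP-glucose pyrophosphorylase), GPI1 (glucose-6-phosphate isomerase) and HXK4 (plastidic hexokinase) fell by 0.63, 0.53 and 0.38, and LOC101263810 (fructokinase-like 2, chloroplastic) rose by 0.67 (adjusted p 0.0277). All 6 passed in the same direction without the 3 libraries, where 10 genes of the list passed (26.3%, against 6.36% of genes). In PI_HC against C_HC, LOC101255080 (SNF1-related kinase beta-3 subunit) fell by 0.95 (adjusted p 0.00615). The FI effects of the experiments differed in LOC101257623 (1.26), LOC101263810 (-0.98) and LOC101255080 (negative, adjusted p 0.0309). In FP_PC, PI_PC, FI_HC and FP_HC against their controls 0 genes of the list passed, and in PI_PC 15 passed without the 3 libraries, 8 higher and 7 lower (39.5%, against 28.8% of genes).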

How the data were processed

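Leaf RNA was poly(A)-selected and sequenced on the DNBSEQ platform, per the labels' protocols. The authors deposited unnormalized counts. Per the file headers, these come from featureCounts 2.0.1, run on read pairs with the reverse-strand setting, the SL3.0 annotation of RefSeq and every exon record taken separately. Coordinates that occur more than once were found in 181694 of 310488 exon records, which hold 0 counts. HISAT2, FastQC and DESeq2 are named in the submitters' processing notes. Records with no gene name held 0.0346% of the counts and were left out.

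Exon counts were summed per gene. Members were found by words in the product names, and 88 of 89 were matched in a RefSeq table, used for names only. The members, their grouping, the list of other sugar genes and the tests were chosen with earlier results of these data known. Genes kept by filterByExpr were tested with edgeR 4.0.16 (quasi-likelihood, TMM scaling) in R 4.3.3, with 31 libraries in one fit, 1 mean per group and 13 comparisons. P-values were adjusted per comparison over all genes by the Benjamini-Hochberg method (threshold 0.05). The standard error of a log2 fold change is its size over the root of F. CPM use TMM-scaled totals, and CPM per kb divide by exon length. The fit was tested on simulated data, with 200 genes changed 2-fold in FI_PC. FI_PC against C_PC recovered 124 of them, with 6 false calls, and the test among all groups recovered 107. The simulation held no libraries that stand apart from their group, so it does not cover that case. Named are members past the threshold, tested SWEET genes, and in each group of members the one with the smallest p and the one with the highest level; others were named after their values were seen.

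Alternatives were DESeq2 1.42.0 and its size factors, no filter on low counts or one of 10 counts in each library, fits of only the groups compared, a replicate block, genes with 1 transcript, each library left out, and the 3 conflicting libraries left out. Leaving out the 3 libraries that stand apart was added after seeing the data. The 45 replicate pairs differed beyond sampling noise (chi-square per gene 9.98 to 227.4). Counting limits cover counting error only. No sequences are given, because no genome or sequence table was used here.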

Additional observations from a re-analysis of the deposited data

Results flagged for a closer look

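Among 14 members in 7 groups of 4 libraries, 98 sets of values were checked for a library with a wide gap to the others, and 9 had one. The 14 are the members that passed a test with all libraries, and LIN8, TMT2, LOC101055573, LeSUT1, sps and STP11. A chance rate of about 5% of sets holds only for genes chosen without regard to their values. It cannot be applied here, because several of the 14 were chosen from these same values. Of the 9, 4 concern the library labelled C_PC 4: it had 107.1 CPM of Wiv-1 (others 17.7 to 27.0), 143.9 CPM of TMT2 (others 97.3 to 99.9), 106.1 CPM of LOC101055573 (others 348.4 to 389.1) and 28.5 CPM of LOC101265012 (others 51.7 to 53.1). PI_PC 2 and 3 had 79.8 and 136.7 CPM of Wiv-1, 135.1 and 146.6 of TMT2, 78.5 and 85.2 of LOC101055573 and 15.6 and 19.5 of LOC101265012. The library labelled PI_PC 4 stood apart in SFP4, with 14.6 CPM against 10.4 to 11.1. FP_PC 1 stood apart in LOC101055573, with 226.1 CPM against 299.6 to 308.0, and in STP11, with 12.35 CPM against 14.3 to 14.5. C_HC 1 had 8.63 CPM of LOC101263195 (others 11.8 to 12.3), and FP_HC 2 had 31.0 CPM of Wiv-1 (others 21.3 to 22.8).

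The effect of FI on LOC109119841 differed between the experiments: the interaction was 2.93 on the log2 scale, with FI_PC at 1.28 to 2.49 CPM against 4.61 to 24.3 in C_PC, and FI_HC at 2.27 to 6.69 CPM against 2.15 to 4.02 in C_HC.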

How the results depend on the processing

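The 10 results in which a member passed a comparison of groups were recomputed, which gave 174 values. Of these, 130 kept the call, 44 lost it and 0 changed direction. The 8 calls in the test among all groups, which has no direction, were recomputed 312 times, and 45 values lost the call. Counts of members past the threshold that moved by over 1.5 times are grouped by setting. Fits of the compared groups alone gave 0 for FI_PC against C_PC, PI_PC against C_PC, PI_HC against PI_PC, C_HC against C_PC and the FI interaction. In those fits 0.102%, 0%, 0%, 0% and 0.842% of all genes passed, in the same order. DESeq2 gave 4 for PI_PC against C_PC, 6 for PI_HC against PI_PC, 3 for C_HC against C_PC and 2 for the PI interaction, where the share of all genes was 2.3%, 6.78%, 1.92% and 2.77%. Without the 3 conflicting libraries the counts were 18, 11, 0 and 9 for these, 1 for FP_HC against FP_PC and 15 for the test among all groups (28.8%, 15.5%, 1.76%, 17.4%, 0.845% and 25.4% of all genes). Without the 3 libraries that stand apart they were 0 for C_HC against C_PC and 1 for the PI interaction (3.83% and 1.97% of all genes). The PI interaction also gave 1 with the stricter filter and 1 with genes of 1 transcript (1.34% and 1.18% of all genes). The replicate numbers are not stated to pair plants, and same-numbered libraries did not deviate together (mean correlation -0.196 to 0.113). With the replicate block C_HC against C_PC gave 0, the test among all groups gave 6 and FI_PC against C_PC gave 3. The shares of all genes there were 0.309%, 8.04% and 1.75%.

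Leaving out each library gave 1 to 3 members for FI_PC against C_PC, 0 to 12 for PI_PC against C_PC, 0 to 1 for PI_HC against C_HC and for C_HC against C_PC, 0 to 8 for PI_HC against PI_PC, 0 to 5 for the PI interaction, 1 to 1 for the FI interaction and 5 to 9 among all groups. PI_PC against C_PC had 12 without the library labelled C_PC 4 (14.8% of all genes), 4 without that labelled PI_PC 4 (4.66%) and 0 without C_PC 1, 2 or 3 or PI_PC 2 or 3 (0% to 0.142%). PI_HC against PI_PC had 8 without the library labelled PI_PC 4 (6.33%), 5 without PI_PC 1 (5.73%), 2 without PI_HC 3 (2.24%), 1 without PI_PC 3 (0.818%) and 0 without PI_HC 4 (0.225%). FI_PC against C_PC had 1 without FI_PC 2 or 3 (0.964% and 0.853%). PI_HC against C_HC had 1 only without C_HC 1, and the PI interaction 5 without the library labelled C_PC 4 (7.39%) and 4 without that labelled PI_PC 4 (1.98%).

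The 36 differences between groups that passed without the 3 conflicting libraries but not with all were recomputed 656 times. Of these values, 77 passed and 9 changed direction, all 9 in PI_PC against C_PC, and the cause was not tested. Leaving out 1 library gave -1.62 to 0.49 for LOC101244503, -0.22 to 1.88 for LOC101247255 and -0.86 to 0.043 for STP11. LOC101244503 had 0.11 without the 3 libraries that stand apart, 0.49 without C_PC 3 and 0.02 without PI_PC 2. LOC101247255 had -0.13, -0.17 and -0.22 without C_PC 1, 2 or 3, and -0.12 and -0.01 without PI_PC 2 or 3. STP11 had 0.043 without C_PC 2. Scaling by size factors moved the median of all genes by at most 0.013 (log2). A library with 0 counts of a gene allows up to 0.219 CPM, and the 42 untested members are too shallow for any comparison.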
